A study of Mus musculus with 6 samples.

Results

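The genes described here are 10 transcription factors and cofactors of immature T-cell acute lymphoblastic leukaemia (T-ALL), Lmo2, Lyl1, Tal1, Ldb1, Hhex, Mef2c, Hoxa9, Cbfa2t3, Bcl11a and Nfe2. They were taken by symbol from a table of 23306 genes, and all 10 symbols were found. The values come from polyA RNA sequencing of 6 mouse T-ALL samples harvested from bone marrow, all isogenic and on the C57BL/6 strain. Of these, 3 were wild type for Phf6 and 3 were knockout, with Phf6 deleted by a Cre recombinase that tamoxifen induces. Mice were injected in the peritoneum with tamoxifen or with corn oil alone. Phf6 encodes a chromatin-associated protein with PHD-like zinc fingers and is a tumour suppressor gene of human T-ALL. The labels do not give the promoter of the Cre, the age of the animals, the oncogene that drove the leukaemia or which samples received tamoxifen. If the knockout samples alone received it, effects of tamoxifen or of the Cre cannot be told apart from those of Phf6 loss. The labels also do not say that the samples came from separate animals, and p-values then measure only the spread between these samples, which may be technical.

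LMO2 is a LIM-domain protein that does not bind DNA itself. It joins the basic helix-loop-helix factors TAL1 (also called SCL) or LYL1, their E-protein partners, GATA factors and the adaptor LDB1 into one complex that works in blood stem cells and erythroid cells. Developing T cells normally switch Lmo2, Lyl1, Tal1 and Hhex off after the earliest thymic stages, and their ectopic activity in thymocytes is a cause of T-ALL. LYL1, LMO2, MEF2C and HOXA9 are known as marks of early T-cell precursor leukaemia, which resembles stem and myeloid cells more than committed T cells.

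Reads assigned to genes numbered 51011800 to 54953145 per wild-type library and 46067511 to 47110984 per knockout library. Expression is given as normalised reads, the gene's reads divided by a size factor of its library. Phf6 itself was at 4941 ± 645 normalised reads in wild type and 1958 ± 329 in knockout (SD, n = 3 each; log2 fold change -1.34, limma adjusted p = 0.00184), and the 2 groups did not overlap. Transcripts that define T cells were abundant in all 6 libraries: the summed level of 12 T-lineage genes, led by Thy1 and Lck, was 4691 to 4938 CPM (the usual depth-scaled read count) in wild type and 3993 to 4816 in knockout. Of the 12, 10 had negative log2 fold changes and 2 fell, the receptor chain gene Cd247 (-0.57, limma adjusted p = 0.00431) and Cd5 (-0.48, limma adjusted p = 0.0179), with a median of -0.22.

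Most of the 10 genes were higher in the knockout libraries. Lmo2, Lyl1, Hhex, Mef2c, Hoxa9, Bcl11a and Nfe2 rose, none fell, and Tal1, Ldb1 and Cbfa2t3 did not pass the test (limma on log2 of reads + 2, Benjamini-Hochberg adjustment over 17993 genes, threshold 0.05). Over all genes tested 8.75% were called, 5.32% rose and 3.43% fell. For the 7 genes that rose, all 3 knockout values lay above all 3 wild-type values, a pattern seen for 15.0% of all genes tested (the opposite pattern, seen for none of the 10, for 16.2%), and 6 of them rose by at least 1 on the log2 scale (3.46% of all genes). The median log2 fold change was 1.23 over the 10 genes and -0.01 over all genes. In 4 of the 7, Hhex, Mef2c, Hoxa9 and Bcl11a, fewer than 3 wild-type libraries reached the 10 normalised reads that the filter asks of at least 3 libraries, so these genes were tested because they were higher in knockout.

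**Figure D1:**
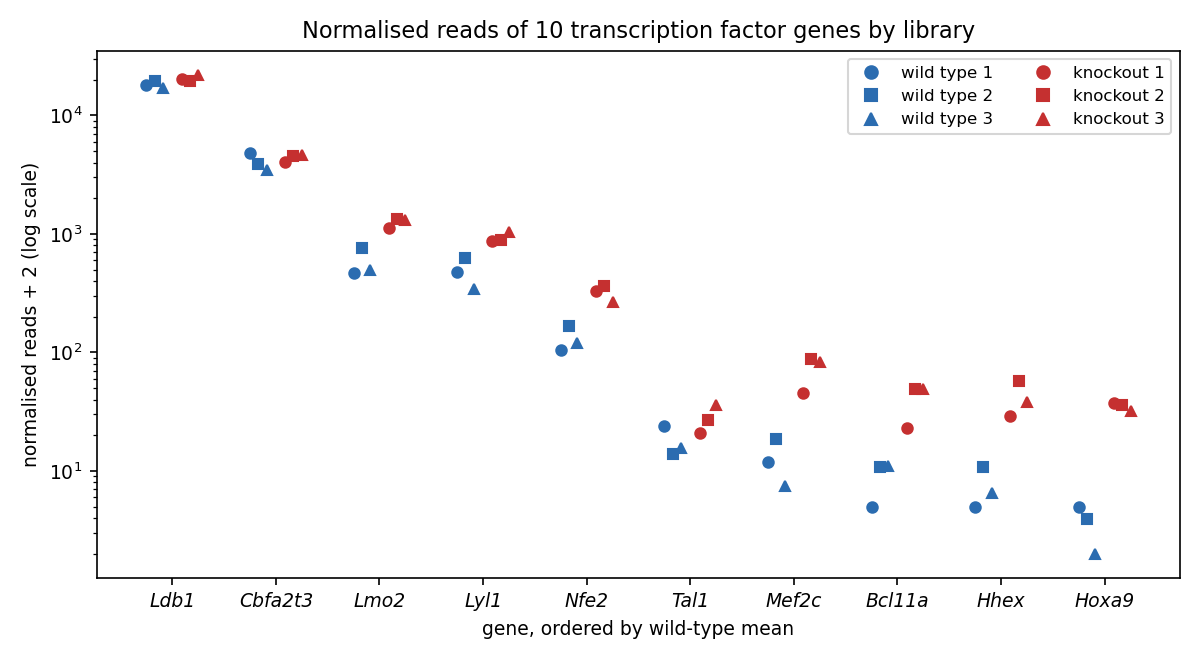
Normalised reads + 2 on a log axis for the 10 genes, blue for wild type and red for knockout; a symbol shape stands for the replicate number. The 2 groups are separate for Lmo2, Lyl1, Nfe2, Mef2c, Bcl11a, Hhex and Hoxa9 and overlap for Ldb1, Cbfa2t3 and Tal1.

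Of the genes for the bridging proteins of the complex, Lmo2 rose and Ldb1 did not pass. Lmo2 (ENSMUSG00000032698; GRCm38 chromosome 2, 103957986 to 103981878, plus strand, protein coding) was at 467, 754 and 492 normalised reads in wild-type replicates 1 to 3 and at 1111, 1332 and 1311 in knockout replicates 1 to 3. Library 2 was the highest of the wild types and still lay below the lowest knockout. The ratio of means was 2.19 and the log2 fold change 1.16 ± 0.18 (SE; limma adjusted p = 0.00682). Ldb1, which encodes the adaptor that holds LMO2 and bridges distant enhancers, was at 17956, 19516 and 17085 in wild type and at 20429, 19384 and 22017 in knockout. Its groups overlapped, and its log2 fold change of 0.18 ± 0.09 did not pass the test (limma adjusted p = 0.226). Ldb1 shares 177 exon bases with Pprc1 on the opposite strand, and whether the counting used the strand is not given in the sources used here.

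The ratio of Lmo2 to Ldb1 was compared within each library. Per kb of exon, Lmo2 was at 5.54%, 8.21% and 6.12% of the Ldb1 level in wild-type replicates 1 to 3 and at 11.6%, 14.6% and 12.7% in knockout replicates 1 to 3. On average this was 6.62% ± 1.41 and 12.9% ± 1.54 (SD, n = 3 each), and every knockout value was above every wild-type value. The difference of the log2 ratio was 0.98 (exact permutation test, two-sided p = 0.1, which is the lowest value 3 samples against 3 can give).

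**Figure D2:**
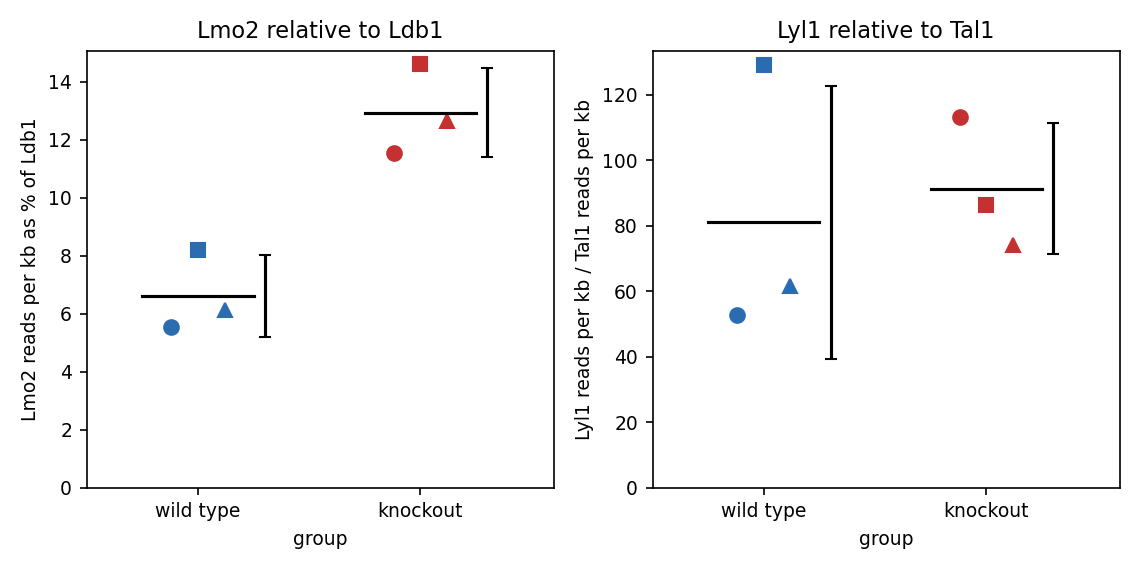
Left, Lmo2 reads per kb of exon as a percentage of Ldb1 reads per kb, which is 5.54% to 8.21% in wild type and 11.6% to 14.6% in knockout. Right, Lyl1 reads per kb divided by Tal1 reads per kb, which is 52.9 to 129 in wild type and 74.2 to 113 in knockout; points are libraries (shape gives the number), lines are means and bars the SD (n = 3).

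LYL1 and TAL1 are close paralogs that fill the same place in the complex. Lyl1 (ENSMUSG00000034041; GRCm38 chromosome 8, 84701457 to 84704715, plus strand, protein coding) was at 478, 628 and 343 normalised reads in wild-type replicates 1 to 3 and at 874, 886 and 1040 in knockout replicates 1 to 3. The highest wild-type library, again number 2, was below all knockout libraries. Averages of 483 ± 143 and 933 ± 92.5 (SD, n = 3 each) gave a ratio of 1.93. The change was 0.99 ± 0.20 on the log2 scale (SE, with a limma adjusted p = 0.0202). Tal1 (chromosome 4, 115056426 to 115071755, plus strand) was at 22.02, 11.9 and 13.6 in wild type and at 18.8, 24.9 and 34.1 in knockout. Wild-type library 1 was above knockout library 1, and the log2 fold change of 0.65 ± 0.34 did not pass (limma adjusted p = 0.269).

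Lyl1 exceeded Tal1 in every library. Per kb of exon the ratio of Lyl1 to Tal1 was 52.9, 129 and 61.5 in wild-type replicates 1 to 3 and 113, 86.5 and 74.2 in knockout replicates 1 to 3. The groups overlapped, with a difference of 0.33 on the log2 scale (two-sided exact permutation p = 0.5), so a change in the balance of the paralogs was not detectable here. The knockout libraries held 76 Tal1 reads in all and the wild-type libraries 49, which limits the precision of this ratio. Lyl1 shares 4 exon bases with Nfix on the opposite strand. Nfix, a nuclear factor I gene chosen here after its values were seen, rose from 274 to 751 normalised reads on average (log2 fold change 1.45, limma adjusted p = 0.00265), and its part in the Lyl1 value was not tested.

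The windows of 250 bases before the most upstream RefSeq start (GRCm38.p6) are shown for Lyl1, which rose, and for Tal1 and Cbfa2t3, which did not pass, because these are the members in whose windows motifs of the complex or its neighbours were found. Capitals mark any match, on either strand, to the E-box CAGNTG (bound by helix-loop-helix dimers), the GATA motif GATAA, the ETS core CCGGAA or the RUNX motif TGTGGT.
Lyl1, chr8:84701207-84701456, plus strand: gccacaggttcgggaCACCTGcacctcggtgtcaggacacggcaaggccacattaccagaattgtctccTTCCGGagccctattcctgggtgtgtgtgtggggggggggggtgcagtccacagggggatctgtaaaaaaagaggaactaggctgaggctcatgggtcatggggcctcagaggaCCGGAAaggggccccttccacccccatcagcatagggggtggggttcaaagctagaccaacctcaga
Tal1, chr4:115056176-115056425, plus strand: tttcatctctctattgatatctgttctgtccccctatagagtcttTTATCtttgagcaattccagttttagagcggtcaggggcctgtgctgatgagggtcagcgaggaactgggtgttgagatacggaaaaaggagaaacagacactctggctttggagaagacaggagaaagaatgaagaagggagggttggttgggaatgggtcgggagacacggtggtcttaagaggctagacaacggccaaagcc
Cbfa2t3, chr8:122699110-122699359, minus strand: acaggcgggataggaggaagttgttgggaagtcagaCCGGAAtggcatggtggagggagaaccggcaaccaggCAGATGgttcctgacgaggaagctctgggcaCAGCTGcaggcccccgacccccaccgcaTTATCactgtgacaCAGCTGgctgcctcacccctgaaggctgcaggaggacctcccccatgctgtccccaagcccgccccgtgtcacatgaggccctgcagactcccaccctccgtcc

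The Lyl1 window held 1 E-box and 2 ETS cores, the Tal1 window 1 GATA motif, and the Cbfa2t3 window 3 E-boxes, 1 GATA motif and 1 ETS core. Of 32851 RefSeq windows of this length, 44.82% held an E-box, 22.58% the GATA motif, 12.03% the ETS core and 14.05% the RUNX motif. The windows of Ldb1, Hhex and Mef2c held none of these letters; that of Hhex was 219 bases long, so as to end before the annotated gene. They differed in composition, with 77.2% G and C for Hhex, 76.0% for Ldb1 and 33.6% for Mef2c, against 60.0% for Lyl1 and 48.8% for Tal1. Of the 10 genes, 8 had an entry in the table, and 6 had a window outside the annotated gene. A match is a description of the sequence and says nothing of occupancy.

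Cbfa2t3 encodes ETO2, a corepressor that joins the SCL complex and restrains its targets. It was at 4779, 3909 and 3471 normalised reads in wild-type replicates 1 to 3 and at 4054, 4541 and 4619 in knockout replicates 1 to 3. The groups overlapped, and the log2 fold change of 0.13 ± 0.12 did not pass (limma adjusted p = 0.536). Its means were 4053 ± 665 and 4405 ± 306 (SD, n = 3 each). Cbfa2t3 overlaps genes on the opposite strand, with 295 shared exon bases for Gm10612.

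The homeobox genes had large relative rises from low levels. Hhex (chromosome 19, 37434810 to 37440731, plus strand) encodes a homeodomain repressor that LMO2 is known to induce in thymocytes. It was at 3.003, 8.89 and 4.52 normalised reads in wild-type replicates 1 to 3 and at 27.1, 55.0 and 36.1 in knockout replicates 1 to 3. The lowest knockout library was above the highest wild type, and the ratio of means was 7.21 with a log2 fold change of 2.49 ± 0.40 (limma adjusted p = 0.00726).

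Hoxa9 (chromosome 6, 52223100 to 52231089, minus strand), a homeobox gene of stem cells and of leukaemias with HOXA activation, had the largest fold change of the 10 genes. It had 3, 2 and 0 reads in wild-type replicates 1 to 3 and 34, 33 and 30 in knockout replicates 1 to 3, and the 3 knockout libraries were close to one another. Over each group the sums were 5 and 97 reads, a ratio of 20.7 after scaling, with an exact binomial 95% interval of 8.58 to 65.3 that covers counting error only. The log2 fold change on the scale of reads + 2 was 3.37 ± 0.42 (limma adjusted p = 0.00346), and this scale understates the change of genes with so few reads. A count of 0 in wild-type library 3 allows up to 2.71 normalised reads, the value of 3 reads there. Hoxa7, the neighbouring homeobox gene that was chosen here after its values were seen, was too low to be tested, with 0, 2.96 and 0.90 normalised reads in wild type and 16.7, 17.7 and 7.02 in knockout.

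Of 18 further genes of the HOXA cluster and of TALE cofactors, which bind DNA beside HOX proteins, 9 were in the table and 6 could be tested, with a median log2 fold change of -0.14. Pknox1, a TALE cofactor, was at -0.38 and did not pass (limma adjusted p = 0.0514; DESeq2 adjusted p = 0.0227). Meis1, the TALE gene often active beside Hoxa9, was below the level for a test, with at most 1.001 normalised reads in wild type and 3.13, 9.35 and 12.03 in knockout replicates 1 to 3.

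Mef2c (chromosome 13, 83504034 to 83667080, plus strand) encodes a MADS-box factor that is high in lymphoid and myeloid progenitors and B cells and is normally silenced in T-cell development. It was at 10.01, 16.8 and 5.42 normalised reads in wild-type replicates 1 to 3 and at 43.8, 86.2 and 81.2 in knockout replicates 1 to 3. Knockout library 1 was the lowest of its group and was above every wild type. The ratio of means was 6.56 and the log2 fold change 2.55 ± 0.40 (limma adjusted p = 0.00659). No other gene of the MEF2 family or the class IIa histone deacetylases that bind MEF2 proteins passed among 7 tested by limma (unadjusted p under 0.05 for 1, and adjusted calls of 0 by edgeR and 1 by DESeq2). Mef2b had the largest difference, from 717 ± 167 to 370 ± 140 normalised reads (log2 fold change -0.98, limma adjusted p = 0.0634; DESeq2 adjusted p = 0.00308), and Hdac7 was at -0.13.

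Bcl11a (chromosome 11, 24078056 to 24174123, plus strand) encodes a zinc finger factor needed for B-cell, dendritic and early lymphoid progenitors. It was at 3.003, 8.89 and 9.04 normalised reads in wild-type replicates 1 to 3 and at 20.9, 46.7 and 47.1 in knockout replicates 1 to 3. The groups did not overlap, the ratio of means was 5.48 and the log2 fold change 2.17 ± 0.44 (limma adjusted p = 0.0179). Bcl11a shares 316 exon bases with the antisense gene 4930538E20Rik.

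Nfe2 (chromosome 15, 103248212 to 103258403, minus strand) encodes the large subunit of the erythroid and megakaryocytic factor NF-E2 and is also made by stem and myeloid cells. It was at 103, 165 and 119 normalised reads in wild-type replicates 1 to 3 and at 328, 360 and 263 in knockout replicates 1 to 3. All knockout libraries were higher, by a ratio of means of 2.45 and a log2 fold change of 1.30 ± 0.21 (limma adjusted p = 0.00743). Among 8 NFE2 relatives and small MAF partners, which dimerise with it or bind the same sites, none passed the test in limma, edgeR or DESeq2 (0 at an unadjusted p under 0.05 in limma). Bach2 was at 0.27 and Nfe2l2 at -0.15 on the log2 scale.

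Levels were ordered within each group by mean normalised reads per kb of exon. In wild type Ldb1 was highest at 3948 ± 267, followed by Cbfa2t3 at 484 ± 79.5, Lyl1 at 268 ± 79.4 and Lmo2 at 264 ± 73.2, the last pair overlapping (SD, n = 3). In knockout Ldb1 was at 4475 ± 288, and Lmo2 at 578 ± 56.2, Cbfa2t3 at 526 ± 36.6 and Lyl1 at 519 ± 51.4 had ranges that overlapped from each to the next. Nfe2 was the fifth in both groups, at 43.2 ± 10.7 and 106 ± 16.6. The other 5 genes were at 3.61 or less in wild type, where Tal1 was above the rest, and at 2.90 to 7.80 in knockout, where Tal1 was no longer separate from Hhex, Hoxa9 and Mef2c. Exons of all transcripts were merged for the length, which lowers the level of genes with long alternative ends such as Mef2c.

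The rises were positive in every setting in which the genes could be tested, but several calls rested on single libraries. Without knockout library 3, of the 7 genes Nfe2 alone was still called (adjusted p = 0.0417); Lmo2, Lyl1 and Mef2c were not (adjusted p = 0.0654, 0.114 and 0.0646, log2 fold changes 1.12, 0.91 and 2.42, limma). Lyl1 also lost its call when wild-type library 1 (0.0868) or knockout library 1 (0.0521) was left out, and Bcl11a lost its call when wild-type library 1 was (0.0629). Hhex, Hoxa9 and Bcl11a could not be tested without any one of the knockout libraries, since the filter then left them out. Without wild-type library 2, the wild type with the highest Lmo2 and Lyl1, all 7 were called and the log2 fold changes of Lmo2 and Lyl1 were 1.38 and 1.20.

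**Figure D3:**
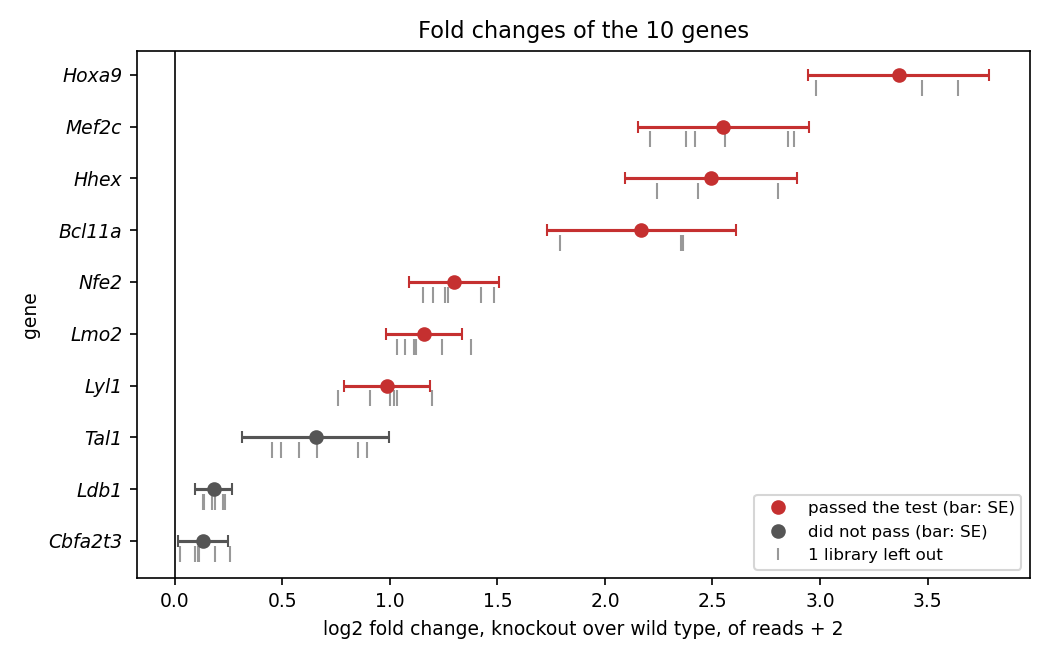
Log2 fold change, knockout over wild type, of the 10 genes with its SE (n = 3 each), in red for genes that passed the test and grey for those that did not; ticks give the value with 1 library left out. Values run from 0.13 for Cbfa2t3 to 3.37 for Hoxa9, and no tick lies below 0.

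Other partners of the complex moved in both directions. Of 20 tested SCL complex partners and cofactors 3 rose and 3 fell, and the list median was -0.08 (log2). Lmo1, an LMO2 paralog that is itself a T-ALL oncogene, rose from 1.001, 20.7 and 6.33 normalised reads in wild-type replicates 1 to 3 to 59.5, 73.7 and 52.2 in knockout (log2 fold change 2.93 ± 0.65, limma adjusted p = 0.0322). Lmo4, another LIM-only gene, rose from 11051 ± 1084 to 16730 ± 987 (0.60, limma adjusted p = 0.00626). Lmo4 was thus far more abundant than Lmo2, and its groups did not overlap. Gata2, the GATA factor of stem cells and mast cells, rose from 5.11 ± 2.96 to 22.2 ± 6.67 normalised reads (1.82), while Gata1 (0.05) and Gata3 (-0.09) did not pass. Lmo1 and Gata2 had fewer than 3 wild-type libraries at 10 normalised reads and were tested because they were higher in knockout. Zfpm1, which encodes the GATA cofactor FOG1, fell by 0.56 on the log2 scale, Ssbp3, an LDB1 partner, by 0.54 and Runx1 by 0.55 (limma adjusted p = 0.00505, 0.0102 and 0.0213). Of these 6 calls, that of Zfpm1 alone held with every library left out in turn. Lmo1 was not called with a pseudocount of 0.5 (limma adjusted p = 0.0627) or without wild-type library 3 or any 1 knockout library (0.0804 to 0.132). Lmo4 lost its call without knockout library 3 (0.0526), Ssbp3 without wild-type library 1 or knockout library 3 (0.0543 and 0.0703), and Runx1 without wild-type library 1 or 3 or knockout library 2 or 3 (0.0516 to 0.114). Gata2 lost it without wild-type library 1 or 3 (0.108 and 0.0645) and could not be tested without any 1 knockout library. Among E proteins and their ID inhibitors, 6 genes were tested and none passed in limma, edgeR or DESeq2 (1 at an unadjusted p under 0.05, Tcf3, at -0.19), with Id1 at 0.30 and spread over 5167 to 19916 normalised reads within wild type alone.

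**Figure D4:**
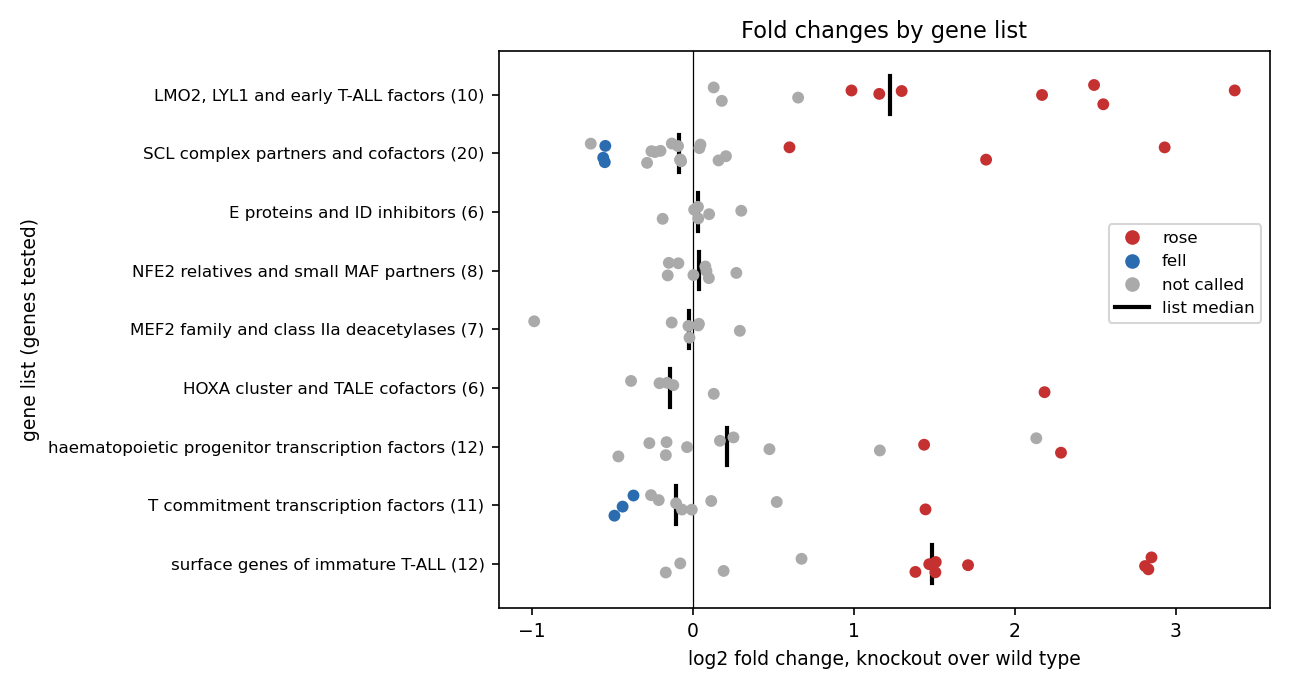
Each point is the log2 ratio of knockout to wild type for 1 tested gene, for the 10 genes and 8 related lists; red rose, blue fell, grey was not called, and black bars are medians. The medians are 1.23 for the 10 genes, 1.49 for surface genes of immature T-ALL and between -0.14 and 0.21 for the others.

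Among 12 tested haematopoietic progenitor transcription factors 2 rose and none fell (median 0.21): Spi1, which encodes the myeloid and B-lineage factor PU.1, from 142 ± 81.4 to 641 ± 89.2 normalised reads (2.29, limma adjusted p = 0.00964), and the ETS gene Erg (1.44, limma adjusted p = 0.0216). Spi1 was not called without knockout library 3 (0.0654), nor Erg without wild-type library 1 or 3 or knockout library 1 or 3 (0.0511 to 0.101). Of 11 T commitment factors 3 fell, Tcf7 (-0.49), Ets1 (-0.44) and Lef1 (-0.37), and Zbtb7b rose (1.45), with a median of -0.10. Lef1 was not called by edgeR (adjusted p = 0.0504), with scaling by library totals (-0.28, limma adjusted p = 0.0796) or without any 1 library other than knockout library 1 (0.0672 to 0.169). Tcf7 and Ets1 each lost the call without wild-type library 1 or 3 or knockout library 1 or 3 (0.0501 to 0.108), and Zbtb7b without knockout library 3 (0.0722). Of 12 surface genes of early thymic progenitors and immature T-ALL 8 rose and none fell. Their median was 1.49. Kit, the stem cell factor receptor, had a log2 fold change of 2.81, Cd34 of 2.85, the myeloid lectin gene Cd33 of 2.83, Csf3r of 1.71, Flt3 of 1.47 and the integrin gene Itgam of 1.38. Csf3r was called with every library left out in turn. Without knockout library 3 the other 5 were not called (limma adjusted p = 0.0625 to 0.108). Cd33 also lost its call without wild-type library 3 or knockout library 2, and Cd34 and Flt3 without any 1 library other than wild-type library 2. Cd34, with 1 wild-type library at 10 or more normalised reads, was tested because it was higher in knockout. The surface list shares 3 genes with the marker lists of myeloid and dendritic cells given next.

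Markers of other blood cells moved in the same libraries. All 20 neutrophil and granulocyte precursor markers had positive log2 fold changes and 9 rose (limma; 5 in edgeR and 19 in DESeq2), and together they reached 143, 531 and 238 CPM in wild-type replicates 1 to 3 and 1536, 1619 and 1282 in knockout replicates 1 to 3. Wild-type library 2 was the highest wild type for this sum and for 6 of the 10 genes, Lmo2, Lyl1, Ldb1, Hhex, Mef2c and Nfe2. It was not the highest for Hoxa9 and Bcl11a, which rose, and the share of all genes with this order was not counted. Among the knockouts, library 2 was the highest for this sum and for 4 of the 10 genes, Lmo2, Hhex, Mef2c and Nfe2, all of which rose. Library 3 was the lowest for this sum and the highest for 5, Lyl1, Tal1, Ldb1, Cbfa2t3 and Bcl11a. Of these 5, Lyl1 and Bcl11a rose, and Bcl11a was nearly equal in libraries 2 and 3 (46.7 and 47.1 normalised reads). Hoxa9 was highest in library 1. The sum of 15 monocyte and macrophage markers was 58.2 to 124 in wild type and 191 to 319 in knockout. Of 12 tested B-cell markers 8 rose and Ighm fell (limma adjusted p = 0.04; edgeR adjusted p = 0.0536). The sum without Ighm was 6.75 to 9.04 and 15.4 to 25.1 CPM, and Pax5, at 4.82 and 45.8 normalised reads on average, rose (limma adjusted p = 0.00508), and it too was tested only because it was higher in knockout. Mast cell and basophil markers summed to 7.04 to 13.2 and 13.1 to 33.5, and megakaryocyte markers to 4.53 to 4.90 and 7.90 to 12.5. Plasmacytoid and conventional dendritic cell markers summed to 52.0 to 56.9 in wild type and 58.9 to 66.4 in knockout, but they moved in both directions. Of 8 tested, Ccr9 (1.42, limma adjusted p = 0.00154) and Flt3 (1.47) rose. The 2 most abundant were lower in knockout, Bst2, which fell (-0.37, limma adjusted p = 0.0474, edgeR adjusted p = 0.0561), and Irf8 (-0.16), which did not pass. The plasmacytoid marker Siglech was at 0 in wild-type libraries 1 and 3 and at most 5.01 normalised reads elsewhere. Erythroid markers summed to 373 to 447 in wild type and 351 to 414 in knockout, and none of 11 tested passed by limma (unadjusted p under 0.05 for 1, and adjusted calls of 0 by edgeR and 1 by DESeq2). Most of the erythroid sum was Tfrc, at 381 CPM on average over the 6 libraries. Stromal and endothelial markers summed to 1190 to 1216 in wild type and 1509 to 1912 in knockout. Pdgfrb and Col1a2 made most of that sum (790 and 509 CPM on average over the 6 libraries). Of 5 tested, Pdgfrb rose (log2 fold change 0.40, limma adjusted p = 0.0308) and Col1a1 fell (-1.21, limma adjusted p = 0.0197). None of the 10 genes is in a marker list. The part of other cells in the rises was not tested, and in bulk samples fewer cells of a type and less RNA per cell cannot be told apart.

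**Figure D5:**
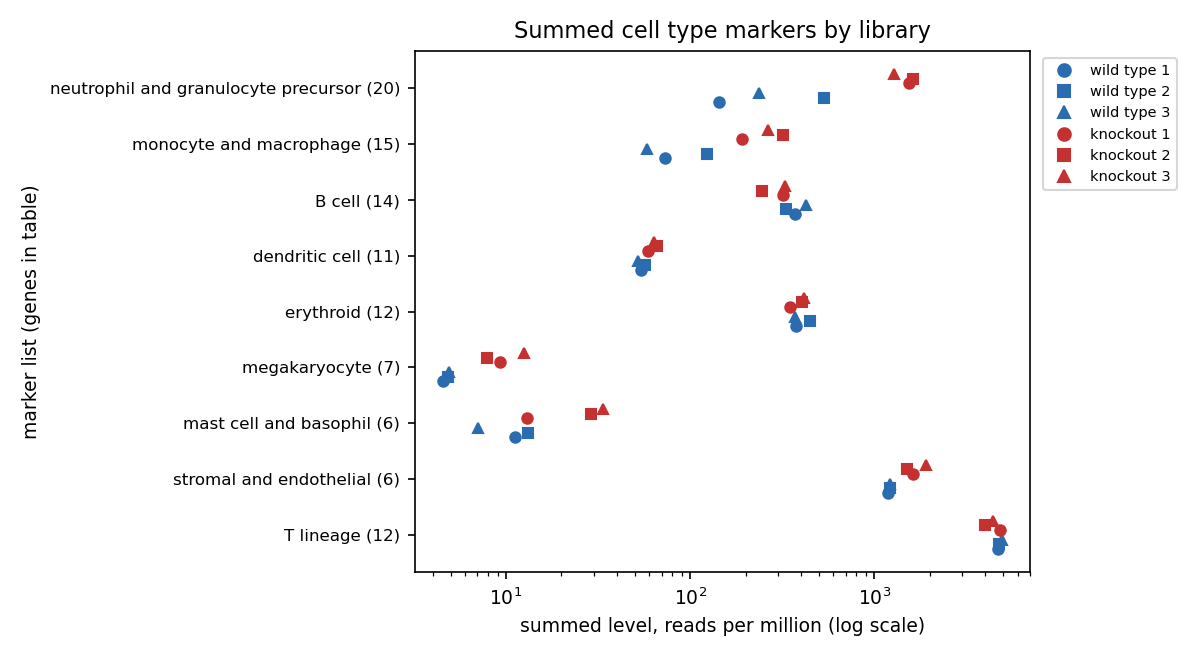
Summed level of 9 cell type marker lists in CPM on a log axis, blue for wild type and red for knockout. The groups are separate for neutrophil (143 to 531 against 1282 to 1619), monocyte, dendritic, megakaryocyte, stromal and B-cell markers (the last lower in knockout) and overlap for erythroid, mast cell and T-lineage markers. Of 8 tested dendritic markers 2 rose and 1 fell. The B-cell sum is mostly Ighm. Without Ighm it is higher in knockout, at 15.4 to 25.1 against 6.75 to 9.04 in wild type (not drawn).

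Genes with the profile most like that of Lmo2 over the 6 libraries were sought among 11042 other genes with a mean of at least 50 normalised reads, by the root mean square difference of log2 values centred on each gene's mean. The nearest were Scamp5 (0.05), Adap1 (0.07) and Plscr1 (0.08). For Lyl1 they were Map3k6 (0.12), Gsn (0.13) and Sh2b2 (0.13). Of the 10 genes, Nfe2 was 41st and Lyl1 54th in likeness to Lmo2, Ldb1 was 1567th and Cbfa2t3 2898th. Hhex, Mef2c, Hoxa9, Bcl11a and Tal1 had means below 50 normalised reads and were not ranked. With 6 libraries in 2 groups, likeness is mostly set by the group difference. No tested gene lay within 100 kb of Hoxa9 or Bcl11a. Near the other loci most genes did not pass the test. Of 36 tested neighbours within 100 kb, 2 rose and 1 fell, and over all genes tested 5.32% rose and 3.43% fell. Both that rose were beside Lyl1 (Nfix and Cacna1a, the latter from 1109 to 2032 normalised reads on average), and Nolc1 beside Ldb1 fell (-0.31).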

How the data were processed

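PolyA RNA of 6 samples was sequenced, and the sample titles gave the group and number of each. Per the submitters' processing notes, the tools were STAR 2.6.0a, bcl2fastq 1.8.4, DESeq2 and featureCounts, with build GRCm38. Annotation and strand setting: not given in the sources used here. The deposited values are a signal, gene counts scaled by the authors with 1 size factor for each library, as the values themselves show: all (100.0%) were whole multiples of a step per library within a tolerance of 0.01, and dividing by it gave the reads. Of 23314 rows, 8 lacked an identifier (no more than 0.00106% of reads in any library) and were dropped.

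The main test was limma 3.58.1 under R 4.3.3, fitted to log2(value + 2) with group as the only term and trended, robust empirical Bayes moderation, for genes at 10 or more in at least 3 libraries. The added 2 makes fold changes of low genes too small. Alternatives were scaling (TMM, library totals), filters, pseudocounts of 0.5 and 8, edgeR 4.0.16 and DESeq2 1.42.0 on the recovered reads, a replicate block and each library left out. Positions and exon lengths came from GENCODE M21 (GRCm38), promoter windows from RefSeq (GRCm38.p6). On simulated counts for 18073 genes with the spread of these samples, 57 of 100 genes changed 2-fold and 18 of 100 changed 1.5-fold were recovered, and 13 of 88 calls were false, above the nominal rate.

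Named genes were Phf6, the 10 genes, of each related list up to 6 that passed (or the 2 with the smallest p where fewer than 2 passed), the 3 most similar to Lmo2 and to Lyl1, and of marker lists the 2 most abundant and those named for absence. The members and lists were chosen with earlier results of these data known. Hoxa7, Meis1, Gata1, Gata3, Pax5, Cd247, Cd5, Col1a1, Ccr9 and the neighbouring genes fall outside this rule and were chosen after their values were seen. Figures used Python 3.11.15 and matplotlib 3.10.9. A result of a related list is not reported here.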

Additional observations from a re-analysis of the deposited data

How the results depend on the processing

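The number of genes called was 1575, and 1325 to 2233 under other scalings, filters, pseudocounts and tools. It was 2568 with a replicate block and 191 to 1939 with 1 library left out, lowest without knockout library 3. The 10 genes counted 7 that rose and none that fell; 7 rose under TMM, library totals, no filter, both pseudocounts, edgeR, DESeq2 and the replicate block. With a filter of 1 CPM in 3 libraries 3 rose, since 4 of the 7 were then not tested, and with 1 library left out 1 to 7 rose, lowest without knockout library 3. Of 105 values for the 7 genes under the alternatives, 92 could be computed, all positive, and 86 were called. With library totals, 1217 genes rose and 300 fell, against 957 and 618, and the median of all genes moved from -0.01 to 0.07. The log2 fold change of Id1, 0.30, was -0.16 when wild-type library 3 was left out, -0.05 when knockout library 2 was, and 0.81 when wild-type library 2 was; the cause was not tested.

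Same-numbered libraries did not pair throughout: deviations from the group means correlated at 0.01, 0.50 and 0.14 for numbers 1 to 3. The value for number 2 was the highest between any wild-type and any knockout library. Knockout libraries 1 and 3 correlated best with a wild type of another number. As a replicate block, sign flips of the pairs gave an exact permutation p = 0.25 for Lmo2 relative to Ldb1, with the difference unchanged at 0.98. That p is the lowest value 3 pairs can give. No call among the 10 genes changed with the block. Hhex, Mef2c, Hoxa9, Bcl11a and Tal1 rest on 206 reads or fewer per group of 3 libraries, which limits their precision.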
